A study of Homo sapiens with 6 samples.

Results

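Cohesin and condensin are ring-shaped protein complexes that shape chromosomes, and 10 of their subunit genes were followed in cells of the established human line H69AR, a doxorubicin-resistant small cell lung cancer line, out of 60605 genes in the count table. The members were taken by name: the cohesin subunits SMC1A, SMC3, RAD21 and STAG2, the SMC pair shared by both condensins, SMC2 and SMC4, the condensin I subunits NCAPD2, NCAPG and NCAPH, and the condensin II subunit NCAPD3. RNA was sequenced from 3 libraries of H69AR cells given 70 nM Supinoxin (RX-5902), a compound that targets the helicase DDX5, and from 3 libraries of untreated H69AR cells. Both groups carry the genotype label WT, the cells were confluent when treated, and neither the treatment time nor a vehicle is stated in the sources used. The labels do not state whether the replicates came from different cultures, and p-values therefore cover only variation among these libraries, possibly technical.

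Each complex holds a pair of SMC ATPases, long coiled-coil proteins joined at a hinge, whose heads are closed by a kleisin subunit that in turn carries HEAT-repeat proteins. Cohesin holds sister chromatids together from DNA replication until anaphase and extrudes the chromatin loops of interphase. Condensin I and condensin II share SMC2 and SMC4 but differ in their kleisin and HEAT subunits, and they compact chromosomes in mitosis, where condensin I gains access after the nuclear envelope breaks down and condensin II is nuclear already in interphase. In bulk RNA, a change in the share of cells in mitosis and a change in RNA per cell cannot be told apart.

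Libraries held 34966826 to 36039854 counts with Supinoxin and 30136963 to 39402804 counts without it. Levels are given in CPM, counts scaled to library size with edgeR's TMM factors, so that 1 CPM stood for 36.2 to 38.2 counts in Supinoxin libraries and 30.7 to 34.9 counts in untreated libraries. On the first principal component of log2 CPM, with 75.4% of the variance, the Supinoxin libraries lay between -58.8 and -54.5, untreated replicate 1 at 79.6 and the other untreated libraries at 45.4 and 44.4. Where leaving out untreated replicate 1 changed a call or moved a fitted log2 fold change by over 1.5 times, the value without it is given too. Of the marker genes checked for the labelled epithelial cell line, KRT8 averaged 112 CPM with Supinoxin and 165 CPM in untreated cells, KRT18 averaged 32.3 and 36.7 CPM, and CDH1 0.0981 and 0.0603 CPM. EPCAM averaged 1.22 CPM with Supinoxin and 10.3 CPM in untreated cells. NEUROD1, which defines a neuroendocrine form of small cell lung cancer, had 0 counts in all libraries together, and of the other neuroendocrine markers INSM1 averaged 11.9 and 19.6 CPM, SYP 5.62 and 6.73 CPM and NCAM1 1.55 and 4.49 CPM, with 55 counts in all for CHGA. The mesenchymal gene VIM averaged 1032 and 976 CPM, the fibroblast markers COL1A1 5234 and 2467 CPM and COL1A2 4583 and 1936 CPM, and ABCC1, the efflux pump of this resistant line, 10476 and 3526 CPM with Supinoxin and without it. Of the leukocyte markers PTPRC had 90 and CD3E 43 counts in all, and the endothelial markers PECAM1 and VWF had 20 and 12. The part of these markers in the members' changes was not tested.

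With Supinoxin, mRNA of 3 of the 9 members that could be tested rose, all 3 by less than 2-fold, and none fell: NCAPD2 1.56-fold, SMC1A 1.47-fold and NCAPG 1.36-fold. The other members did not pass the threshold, which was an adjusted p of 0.05 (edgeR quasi-likelihood, Benjamini-Hochberg over all 15947 genes tested). By that rule 23.4% of all genes tested were higher and 25.2% lower with Supinoxin, so the share of members called higher is set against a broad background and is not a result about the members. Condensin had 2 of 5 tested members higher and 0 lower, with a median log2 fold change of 0.45, and cohesin 1 of 4 higher and 0 lower, with a median of 0.34. The median over all genes tested was 0.00. Without untreated replicate 1 the condensin median was 0.27, with 4 members called, all higher. The cohesin median was then 0.15, with 3 members called, of which 2 were higher and 1, STAG2, was lower. Calls over all genes rose as well, to 4334 higher and 4477 lower of 16348 tested. With all libraries they were 3732 and 4018 of 15947. With an offset that removes each library's trend on exonic length and GC content, the condensin median was 0.32 and the cohesin median -0.02. In 6 of the 9 tested members every Supinoxin library lay above every untreated one, against 31.3% of all genes tested. The tenth member, SMC4, was listed at 0 in every library.

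**Figure D1:**
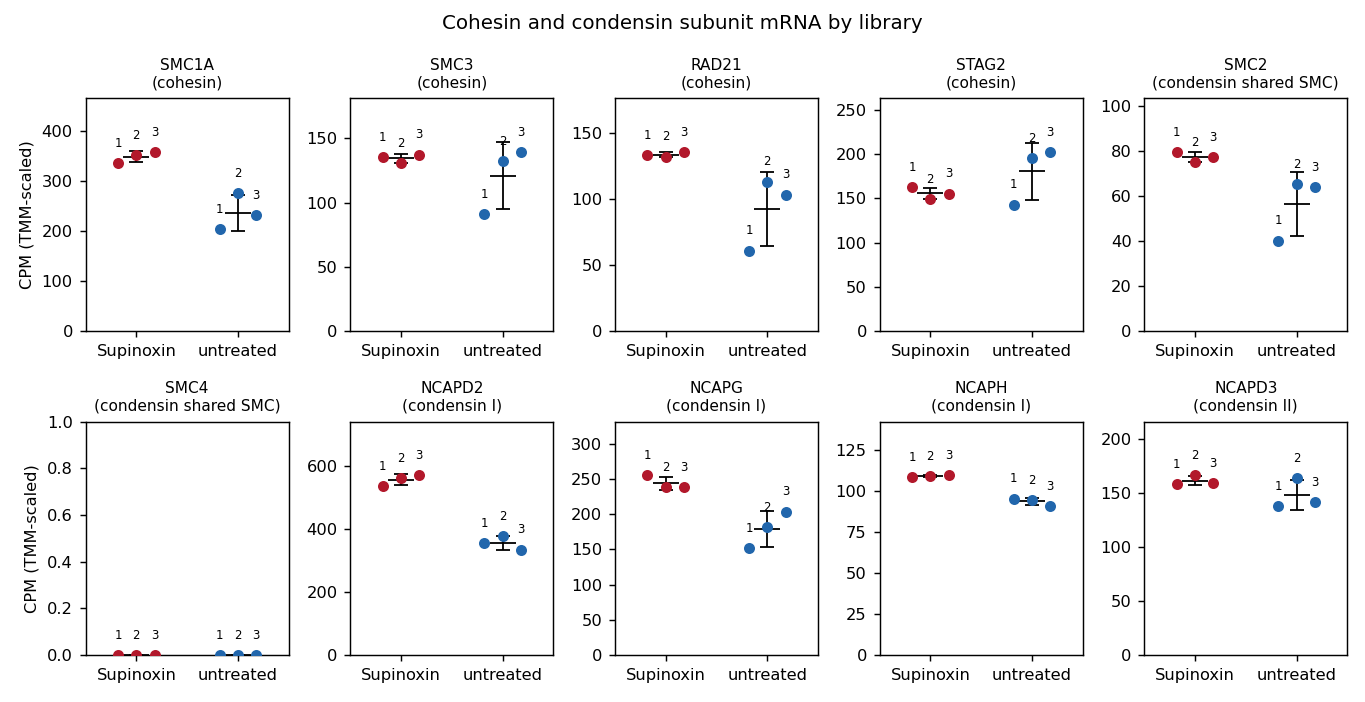
TMM-scaled CPM of the 10 subunit genes in each Supinoxin (red) and untreated (blue) library, numbered by replicate, with the mean and SD of 3 libraries as bars; each panel has its own axis from 0. The Supinoxin libraries lie close together, untreated replicate 1 is the lowest library for SMC1A, SMC3, RAD21, STAG2, SMC2, NCAPG and NCAPD3, and SMC4 is at 0 throughout.

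Cohesin's SMC pair is SMC1A and SMC3. SMC1A (ENSG00000072501, chromosome X, 53374149 to 53422728, GRCh38) had 336, 351 and 359 CPM in the Supinoxin libraries, against 204, 275 and 232 CPM in the untreated libraries. Every Supinoxin library was above every untreated one, and the difference between the means exceeded the range within either group. SMC1A rose by 0.56 on the log2 scale (SE 0.14, edgeR adjusted p = 0.0108), with group means of 349 ± 11.4 CPM with Supinoxin and 237 ± 35.9 CPM in untreated cells (SD, n = 3 each). The call was lost without Supinoxin replicate 3 (0.54, adjusted p = 0.0534) and with the length and GC offset (0.24, adjusted p = 0.0571).

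SMC3 (ENSG00000108055, chromosome 10, 110567684 to 110606048) had 136, 131 and 137 CPM with Supinoxin, against 91.3, 132 and 139 CPM in untreated cells. The groups overlapped, since untreated replicates 2 and 3 were at the level of the treated libraries and untreated replicate 1 alone was lower. The log2 fold change was 0.15, with a 95% interval of -0.23 to 0.53 (adjusted p = 0.476). It was -0.01 without untreated replicate 1. With that length and GC offset, SMC3 fell by 0.22 (adjusted p = 0.0423).

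RAD21, the kleisin that separase cuts to release sister chromatids (ENSG00000164754, chromosome 8, 116845934 to 116874776), had 133, 132 and 135 CPM with Supinoxin, against 60.8, 113 and 103 CPM in untreated cells. The groups did not overlap, but untreated replicate 1 lay far below the other untreated libraries. The log2 fold change of 0.53 (SE 0.21) narrowly missed the threshold (adjusted p = 0.0605). Without untreated replicate 1 it was smaller and passed, at 0.31 (adjusted p = 0.00785). It also passed without untreated replicate 2 (0.71, adjusted p = 0.0376), and by DESeq2 (0.53, adjusted p = 0.038). The length and GC offset gave 0.18 (adjusted p = 0.237).

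STAG2, the HEAT-repeat subunit that binds RAD21 and is often mutated in cancers (ENSG00000101972, chromosome X, 123960212 to 124422664), was the single tested member with a negative fold change. It had 162, 149 and 155 CPM with Supinoxin, against 143, 195 and 203 CPM in untreated cells. The treated libraries lay between untreated replicate 1 and the other untreated libraries, so the groups overlapped. The log2 fold change was -0.21, with a 95% interval of -0.56 to 0.14 (adjusted p = 0.28). Without untreated replicate 1, STAG2 fell by 0.35 (adjusted p = 0.00336), and with the length and GC offset by 0.60 (adjusted p = 0.000256).

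STAG1, which takes the place of STAG2 in a separate form of cohesin, had 41.4, 43.5 and 42.0 CPM with Supinoxin, against 18.8, 26.2 and 37.0 CPM in untreated cells. It rose by 0.63 on the log2 scale (SE 0.22, adjusted p = 0.0362), and 21.2% of its exonic bases are shared with genes on the other strand. The call was lost when any 1 Supinoxin library was left out (adjusted p = 0.0791 to 0.0934), and without untreated replicate 2 (adjusted p = 0.104). The direction was positive in every alternative run, with a range of 0.43 to 0.91. With a Supinoxin library left out, calls over all genes also fell, from 7750 to between 5345 and 5570.

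Of the condensin SMC pair, SMC2 was counted and SMC4 was not. SMC2 (ENSG00000136824, chromosome 9, 104094260 to 104141419) had 79.6, 74.9 and 77.2 CPM with Supinoxin, against 40.2, 65.3 and 63.8 CPM in untreated cells. All Supinoxin libraries were above all untreated ones, with untreated replicate 1 lowest by a wide margin. The log2 fold change of 0.45 (SE 0.18) missed the threshold (adjusted p = 0.0656). It passed without untreated replicate 1 (0.27, adjusted p = 0.0149), by DESeq2 (0.45, adjusted p = 0.04998) and with the length and GC offset (0.32, adjusted p = 0.0309).

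SMC4 (ENSG00000113810, chromosome 3, 160399274 to 160434954) had 0 counts in all 6 libraries. A count of 0 allows up to 3 counts, or 0.0784 to 0.0828 CPM in Supinoxin libraries and 0.086 to 0.0978 CPM in untreated ones, by counting error alone. SMC4 is needed by dividing cells and is the obligate partner of SMC2, so this 0 was not read as silence. Of 19942 protein-coding genes in the table, 3846, or 19.3%, were listed at 0 in every library. At this locus IFT80, which overlaps SMC4 on the other strand, was also listed at 0, and TRIM59, which overlaps the opposite end on the other strand, had 55 counts over the Supinoxin libraries and 12 over the untreated libraries. A further protein-coding gene on that other strand, ENSG00000248710, spans SMC4 and overlaps both IFT80 and TRIM59. It had 28 counts over the Supinoxin libraries and 20 over the untreated libraries. In the annotation, 22.0% of the exonic bases of SMC4 are shared with genes on the other strand. The part of the authors' counting in the 0 was not tested.

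The condensin I subunits NCAPD2, NCAPG and NCAPH all had higher means with Supinoxin, in groups that did not overlap. Over all genes tested, 31.3% had every Supinoxin library above every untreated one. NCAPD2, the HEAT-repeat subunit of condensin I (ENSG00000010292, chromosome 12, 6493356 to 6531955), had 538, 563 and 571 CPM with Supinoxin, against 357, 378 and 335 CPM in untreated cells. The groups did not overlap, and the gap between them exceeded the spread within either. NCAPD2 rose by 0.64 on the log2 scale (SE 0.12, edgeR adjusted p = 0.00247), with means of 557 ± 17.1 CPM with Supinoxin and 357 ± 21.3 CPM in untreated cells (SD, n = 3 each). Its rise passed in all 13 alternatives, with a range of 0.52 to 0.78 and an adjusted p of at most 0.0204. Among the tested members this held for NCAPD2 alone. Untreated replicate 1 lay 0.00 from the mean of the other untreated libraries on the log2 scale.

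NCAPG, the other HEAT-repeat subunit of condensin I (ENSG00000109805, chromosome 4, 17810979 to 17844865), had 255, 239 and 239 CPM with Supinoxin, against 152, 182 and 204 CPM in untreated cells. All treated libraries were higher, although the untreated libraries were spread. NCAPG rose by 0.45 (SE 0.14, adjusted p = 0.0269), and 33.7% of its exonic bases are shared with genes on the other strand. The call was lost when any 1 Supinoxin library was left out, at 0.42 to 0.47 (adjusted p = 0.0818 to 0.113). Calls over all genes fell too, from 7750 to between 5345 and 5570.

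NCAPH, the kleisin of condensin I (ENSG00000121152, chromosome 2, 96335766 to 96377091), had 108, 109 and 109 CPM with Supinoxin, against 95.3, 94.4 and 90.9 CPM in untreated cells. Both groups were tight and did not overlap. The log2 fold change was 0.22 (adjusted p = 0.136), with a 95% interval of -0.04 to 0.47 that overlapped the 0.24 to 0.88 of SMC1A. It passed without untreated replicate 1 (0.24, adjusted p = 0.0195) and with library size alone (0.36, adjusted p = 0.0451), and was 0.05 with the length and GC offset.

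Condensin II was represented by NCAPD3, its HEAT-repeat subunit (ENSG00000151503, chromosome 11, 134150113 to 134225504), which had 159, 166 and 160 CPM with Supinoxin, against 138, 164 and 142 CPM in untreated cells. The groups overlapped through untreated replicate 2. The log2 fold change was 0.12, with a 95% interval of -0.16 to 0.41 (adjusted p = 0.435). NCAPD3 fell by 0.32 under the length and GC offset (adjusted p = 0.0164). Of the remaining condensin II subunits, NCAPG2 had 204, 204 and 199 CPM with Supinoxin, against 131, 193 and 179 CPM in untreated cells (log2 fold change 0.27, adjusted p = 0.182, and 0.13 without untreated replicate 1). NCAPH2, the condensin II kleisin, had 90.2, 103 and 96.0 CPM with Supinoxin, against 283, 160 and 148 CPM in untreated cells. NCAPH2 fell by 1.03 on the log2 scale (SE 0.23, adjusted p = 0.00601), and by 0.67 without untreated replicate 1, its highest library (adjusted p = 0.00015). A gene on the same strand covers 19.2% of its exonic bases.

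Ratios of members within a library were compared between the groups as log2 ratios of CPM, which are not scaled for length. The ratio of NCAPD2 over NCAPD3 was 1.76, 1.76 and 1.84 with Supinoxin, against 1.37, 1.20 and 1.24 in untreated cells. The ranges did not overlap, and the difference of 0.52 had an exact two-sided permutation p of 0.1 (n = 3 each), the smallest that 3 against 3 libraries can give. NCAPG over NCAPD3 differed by 0.33 and NCAPH over NCAPD3 by 0.09, both with overlapping libraries (exact p = 0.2 and 0.4, n = 3 each). Within cohesin, SMC1A over SMC3 was 0.39 higher and RAD21 over SMC3 0.41 higher with Supinoxin, while STAG2 over SMC3 was lower, by -0.37. Each of these had groups apart and an exact p of 0.1 (n = 3 each). SMC2 over SMC3, a condensin against a cohesin ATPase, was 0.31 higher with groups apart (exact p = 0.1, n = 3 each). With 0.1 as the smallest possible exact p, none of these 7 ratios could pass a threshold of 0.05. After Benjamini-Hochberg adjustment of the exact p the lowest value was 0.14.

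Averaged over the tested members of each complex, condensin minus cohesin was 0.02, 0.05 and 0.00 (mean log2 CPM) in the Supinoxin libraries, against 0.13, -0.19 and -0.19 in the untreated libraries. The groups overlapped: untreated replicate 1 lay above all Supinoxin libraries and the other untreated libraries below them. This average, which is not scaled for length, was not tested.

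Levels were compared between genes as CPM per kilobase of the canonical transcript of GENCODE 44. With Supinoxin, condensin I HEAT subunits were highest, NCAPD2 at 116 ± 3.54 and NCAPG at 53.2 ± 2.10 CPM per kilobase (SD, n = 3). The cohesin subunits came next in pairs that did not differ beyond their spread, RAD21 at 36.4 ± 0.525 with SMC1A at 35.9 ± 1.17, and STAG2 at 25.2 ± 1.06 with SMC3 at 24.3 ± 0.624 CPM per kilobase. NCAPD3 at 21.9 ± 0.577, NCAPH at 18.1 ± 0.0929 and SMC2 at 13.0 ± 0.391 CPM per kilobase followed, each apart from the next. In untreated cells NCAPD2 stood at 73.9 ± 4.41 and NCAPG at 39.1 ± 5.62 CPM per kilobase. STAG2, RAD21, SMC1A, SMC3 and NCAPD3 lay between 20.1 and 29.2 there. Their spreads overlapped except between STAG2 at 29.2 ± 5.26 and NCAPD3 at 20.1 ± 1.91 CPM per kilobase. NCAPH, at 15.5 ± 0.386, and SMC2, at 9.52 ± 2.38 CPM per kilobase, came last there too. These levels and their order depend on the length used. Over all annotated exons with Supinoxin, NCAPD2 at 86.2 and NCAPG at 50.4 CPM per kilobase stayed highest. SMC1A followed at 32.2, NCAPH at 16.6 and SMC2 at 11.9 CPM per kilobase. STAG2 at 9.73, RAD21 at 9.27, SMC3 at 8.67 and NCAPD3 at 8.64 CPM per kilobase then came last, since their annotated exons are longer in sum.

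The members differed in exonic length and GC content, and over the protein-coding genes tested the median log2 fold change rose with exonic length. Their exonic bases sum to 4847 (NCAPG) to 18698 (NCAPD3), and SMC3, RAD21, STAG2 and NCAPD3 are longer than 93.9% to 97.3% of the protein-coding genes tested. Over the 2510 of those genes with the greatest exonic length the median log2 fold change was 0.38, with 43.9% higher and 12.0% lower, and over the 2510 shortest it was -0.52, with 8.69% higher and 49.9% lower. Among the 9 tested members themselves, log2 fold changes had a rank correlation of -0.63 with exonic length and 0.23 with GC content, a description over genes that share libraries. The part of length in the members' changes was not tested beyond the offset.

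Untreated replicate 1 relative to the mean of the other untreated libraries followed the members' GC content. The 5 tested members with under 40% GC, which were RAD21, SMC3, SMC2, NCAPG and STAG2, lay between -0.83 (RAD21) and -0.34 (NCAPG) on the log2 scale. The 4 members with more GC lay between -0.31 (SMC1A) and 0.04 (NCAPH). The rank correlation over the 9 members was 0.85 with GC content and -0.12 with exonic length. The part of GC content in the members' changes was not tested beyond the offset.

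**Figure D2:**
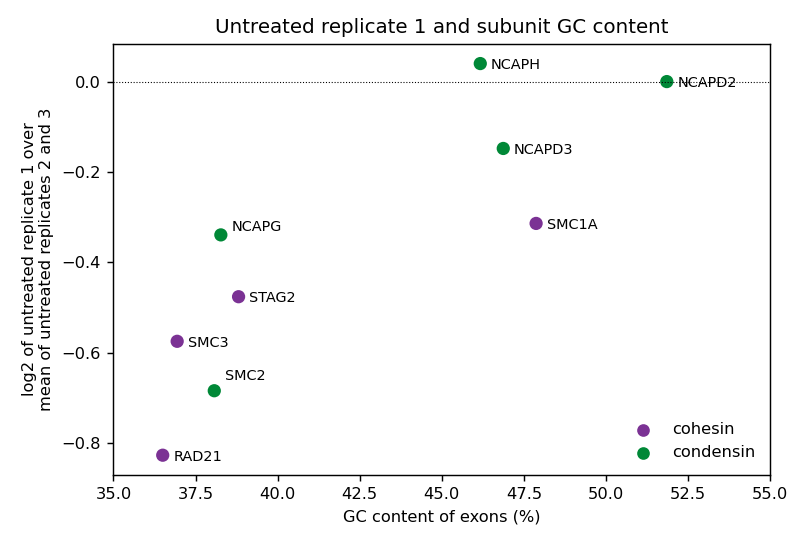
For each tested subunit, the GC content of its exons (x axis, %) against the log2 ratio of untreated replicate 1 to the mean of untreated replicates 2 and 3 (y axis), with cohesin in purple and condensin in green. Members under 40% GC lie between -0.83 and -0.34. Of those with more GC, NCAPD2 and NCAPH lie near 0, NCAPD3 at -0.15 and SMC1A at -0.31.

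**Figure D3:**
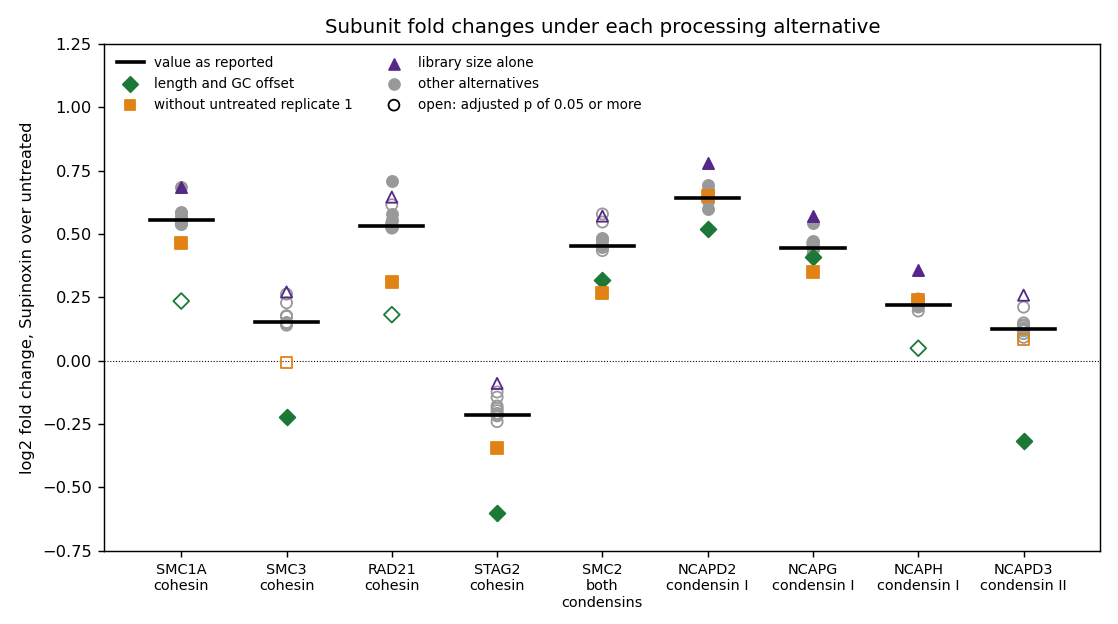
Log2 fold change, Supinoxin over untreated, of each tested subunit as reported (black line) and under 13 alternatives (points, filled where the adjusted p is under 0.05). NCAPD2 is filled in all of them, the length and GC offset lowers every member, and without untreated replicate 1 STAG2 is filled below 0.

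To show what lies upstream of condensin subunits with different fold changes, of which NCAPD2 and NCAPG passed the test and NCAPH and NCAPD3 did not, the 250 bases before the RefSeq start (GRCh38.p14) are printed for NCAPD2, NCAPG and NCAPH of condensin I and, as the condensin II counterpart, NCAPD3. Capitals mark the letters of 3 short motifs of cell cycle promoters, searched on both strands: the CHR element (TTTGAA or TTCGAA), the CCAAT box (CCAAT, read as ATTGG on the other strand) and E2F sites (TTTCCCGC, TTTCGCGC, TTTGCCGC or TTTGGCGC). The windows are chr12:6493852-6494101, chr4:17810729-17810978 and chr2:96335516-96335765 on the plus strand and chr11:134223968-134224217 on the minus strand, the second of 2 NCAPD3 starts, all written 5′ to 3′.
NCAPD2: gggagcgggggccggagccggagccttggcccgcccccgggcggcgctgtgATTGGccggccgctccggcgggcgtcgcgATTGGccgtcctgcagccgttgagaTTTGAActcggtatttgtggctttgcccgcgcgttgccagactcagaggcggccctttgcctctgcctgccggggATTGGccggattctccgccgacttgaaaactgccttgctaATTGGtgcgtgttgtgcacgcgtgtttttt
NCAPG: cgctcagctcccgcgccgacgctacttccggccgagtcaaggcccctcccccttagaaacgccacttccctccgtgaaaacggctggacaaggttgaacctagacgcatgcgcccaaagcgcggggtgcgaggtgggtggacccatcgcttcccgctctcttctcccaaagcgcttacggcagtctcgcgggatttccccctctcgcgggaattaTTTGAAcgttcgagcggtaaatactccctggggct
NCAPH: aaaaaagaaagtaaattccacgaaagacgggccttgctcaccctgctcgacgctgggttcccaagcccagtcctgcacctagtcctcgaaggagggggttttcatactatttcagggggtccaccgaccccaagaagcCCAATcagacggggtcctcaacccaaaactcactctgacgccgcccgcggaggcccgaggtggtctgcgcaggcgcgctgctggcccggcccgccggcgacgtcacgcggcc
NCAPD3: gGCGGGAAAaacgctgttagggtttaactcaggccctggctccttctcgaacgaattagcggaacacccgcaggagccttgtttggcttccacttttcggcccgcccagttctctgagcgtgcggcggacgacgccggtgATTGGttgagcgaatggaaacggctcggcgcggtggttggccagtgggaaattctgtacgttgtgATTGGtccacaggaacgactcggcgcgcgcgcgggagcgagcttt
The NCAPD2 window held 4 CCAAT boxes, all on the other strand, and 1 CHR element. The NCAPG window held 1 CHR element, 35 to 30 bases before the start, and the NCAPH window 1 CCAAT box. The NCAPD3 window held 2 CCAAT boxes and 1 E2F site, with no overlap between motifs, and the window of the other NCAPD3 start, not printed, held 0 of the 3 motifs. Of 35116 RefSeq promoters, 14.3% held a CHR element in this window, 32.0% a CCAAT box and 2.79% an E2F site. A CHR element together with a CCAAT box, as in NCAPD2, was in 5.05%, and 4 or more CCAAT boxes in 0.874%. Of the 10 members 9 had an entry, and the entry missing was RAD21. Among windows not printed, that of SMC3, which did not pass, held 1 CHR element, as did 1 window of SMC4. The windows of SMC1A, which passed, held 1 E2F site and no CHR element. Those of STAG2, which did not pass, held CCAAT boxes and 1 E2F site, and those of SMC2 held 0 of the 3 motifs. The part of these motifs in the fold changes was not tested. These matches are letters in a window and no measurement of binding.

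Among genes that act on cohesin, those for loading it onto DNA and positioning its loops all passed. Of the 3 genes, NIPBL, which loads cohesin and stimulates its ATPase, rose by 0.83, MAU2, which binds NIPBL, by 0.46, and CTCF, the boundary factor at which loops stop, by 0.48 on the log2 scale (adjusted p = 0.0111, 0.0227 and 0.015). NIPBL had 84.2, 74.3 and 83.4 CPM with Supinoxin, against 29.6, 50.5 and 55.8 CPM in untreated cells, and its groups did not overlap. NIPBL passed in all alternatives run, at 0.52 with the length and GC offset, whereas MAU2 and CTCF each lost the call when any 1 Supinoxin library was left out, and CTCF also with that offset (0.17, adjusted p = 0.0778), under which MAU2 stood at 0.28. The list median was 0.48, beside 0.00 over all genes tested, of which 23.4% were higher and 25.2% lower. With a Supinoxin library left out 1 of the 3 genes passed, while calls over all genes fell from 7750 to between 5345 and 5570. The list median with the offset was 0.28.

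Of 6 tested genes for release of cohesin and for its acetylation 2 rose and 0 fell, beside 23.4% of all genes tested higher and 25.2% lower, and the median was 0.29, or 0.12 with the length and GC offset. ESCO1, an acetyltransferase of SMC3, rose by 0.69 (adjusted p = 0.00508), in all alternatives run, and WAPL, which opens the ring, by 0.51 (adjusted p = 0.0375). The WAPL call was lost with any 1 Supinoxin library or untreated replicate 2 left out, and its log2 fold change was 0.34 with the length and GC offset. PDS5A and PDS5B, which bind cohesin together with WAPL, stood at 0.22 and 0.35, CDCA5 (sororin), which counters WAPL, at 0.08 and ESCO2, the acetyltransferase of S phase, at -0.14, none of them past the threshold. Without untreated replicate 1 PDS5A stood at 0.05 and PDS5B at 0.21. PDS5B passed without untreated replicate 3 (0.47) and CDCA5 without untreated replicate 1 (0.23). Under the length and GC offset CDCA5 (0.24, adjusted p = 0.0367) and ESCO2 (-0.36, adjusted p = 0.0127) passed. HDAC8, the deacetylase of SMC3, had 23 counts in all and was not tested.

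Of 4 genes of cohesin cleavage and protection 3 rose and 0 fell, beside 23.4% higher and 25.2% lower over all genes tested, and the median was 0.69. ESPL1, which encodes separase, the protease that cuts RAD21, had 217, 247 and 241 CPM with Supinoxin, against 104, 102 and 72.1 CPM in untreated cells. All treated libraries were above all untreated ones, and the rise was 2.53-fold (log2 1.34, SE 0.17, adjusted p = 0.000414). SGO2 and SGO1, shugoshins that shield centromeric cohesin, rose by 0.94 and 0.43 (adjusted p = 0.00206 and 0.0281), and the SGO1 call was lost without Supinoxin replicate 1 or 3 or untreated replicate 2. PTTG1, securin, the inhibitor of separase, stood at -0.25 (95% interval -0.61 to 0.12, adjusted p = 0.237), and at -0.06 without untreated replicate 1.

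Of 4 tested genes for other cohesin subunits, 1 rose, STAG1 as given above, and 2 fell, both meiotic, with a median of -0.03. Over all genes tested 23.4% were higher and 25.2% lower. REC8, the meiotic kleisin that replaces RAD21, had 130, 148 and 149 CPM with Supinoxin, against 263, 214 and 196 CPM in untreated cells. It fell by 0.66 on the log2 scale (SE 0.15, adjusted p = 0.00576), in all alternatives run. SMC1B, the meiotic SMC1, had 30, 37 and 55 counts with Supinoxin, against 68, 75 and 86 counts in untreated cells, and fell by 1.08 (adjusted p = 0.0129), a call lost without Supinoxin replicate 1 or 2. STAG3, with 186 counts in all, did not pass (0.59, adjusted p = 0.123), and RAD21L1, with 3 counts in all, was not tested.

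Of 7 partners of condensin in building mitotic chromosomes 4 rose and 1 fell, where over all genes tested 23.4% rose and 25.2% fell, and the median was 0.51. MKI67, the surface coat protein of mitotic chromosomes known as Ki-67, had 309, 302 and 333 CPM with Supinoxin, against 72.3, 110 and 96.7 CPM in untreated cells. It rose 3.39-fold (log2 1.76, SE 0.17, adjusted p = 0.00013), with no overlap between groups. KIF4A, a chromosome-bound kinesin that acts with condensin, rose by 0.83 (adjusted p = 0.000947), and both genes passed in all alternatives run. TOP2A, the topoisomerase of the chromosome axis, rose by 0.53 and PLK1, a mitotic kinase, by 0.51 (adjusted p = 0.0157 and 0.0429). Both lost the call with any 1 Supinoxin library left out, and PLK1 also without untreated replicate 2 or 3 and with DESeq2 size factors (adjusted p = 0.0533). CDK1, the kinase that phosphorylates condensin at mitotic entry, fell by 0.65 (adjusted p = 0.00308), in all alternatives run. AURKB, at -0.07, and MCPH1, which restrains condensin II, at -0.16, did not pass, and AURKB was 0.25 without untreated replicate 1 (adjusted p = 0.018). MCPH1 stood at -0.24 without untreated replicate 1 and passed under the length and GC offset (-0.69, adjusted p = 0.000442).

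**Figure D4:**
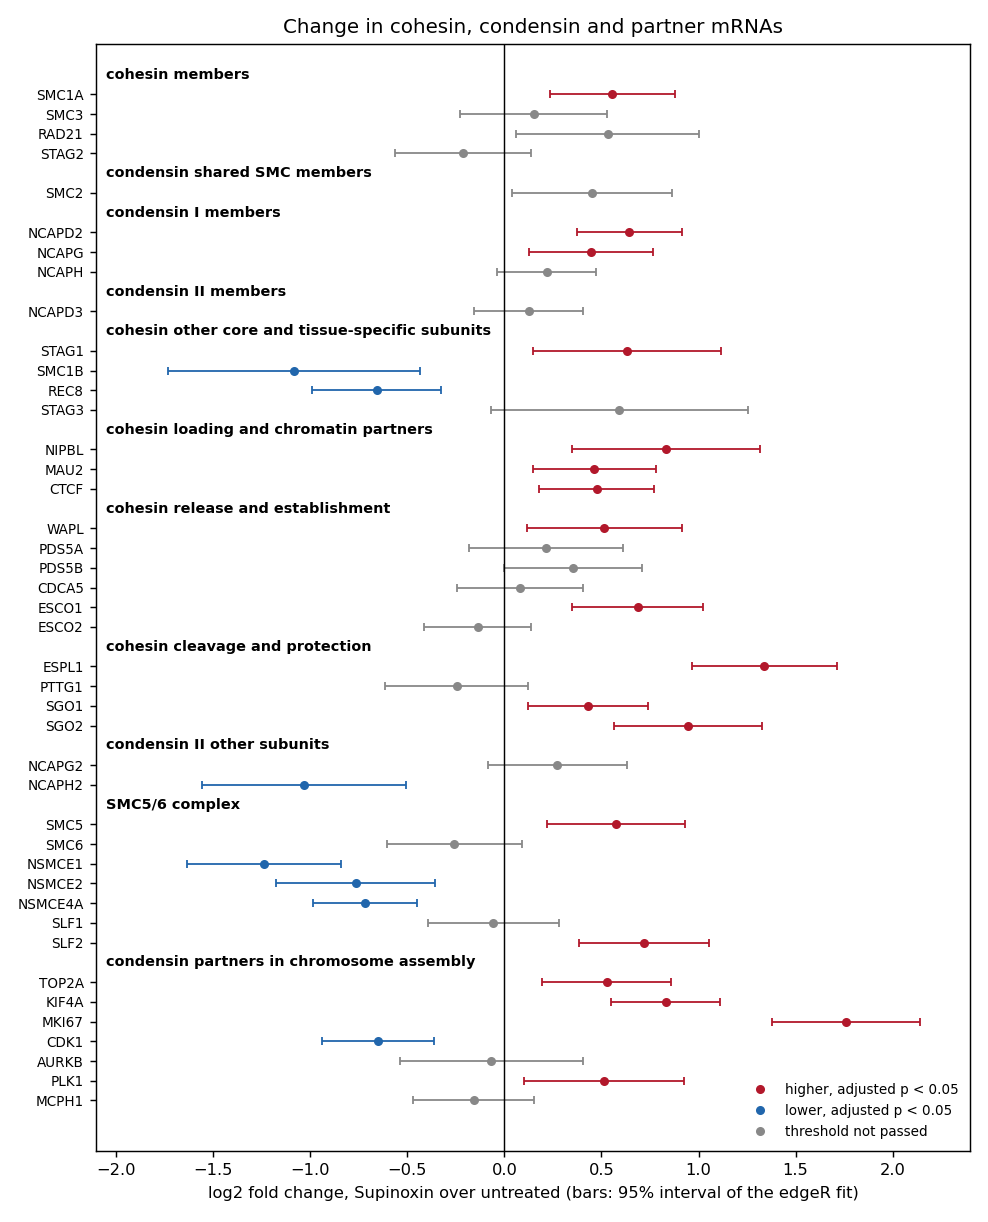
Log2 fold change, Supinoxin over untreated (x axis), with its 95% interval from the edgeR fit, for the tested subunits of cohesin and condensin and for genes of partner lists (rows). Red marks genes higher and blue genes lower at an adjusted p under 0.05, grey genes that did not pass; ESPL1 (1.34) and MKI67 (1.76) lie farthest right and NSMCE1 (-1.24) farthest left.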

How the data were processed

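The authors' deposited file holds raw counts, unnormalized whole numbers per Ensembl gene, for 6 libraries, and columns were mapped to samples by name. Columns named WT were taken as untreated because the other columns name Supinoxin. Per the submitters' processing notes, the build was GRCh38 and the tools included STAR, featureCounts, Trim Galore 0.4.4, fastp, edgeR and DESeq2, with no order given. Strandedness, annotation version and treatment of multi-mapping reads were not stated, so reads of overlapping and antisense genes cannot be told apart. Of 60605 identifiers 60463 matched GENCODE 44 (142 did not), which gave symbols, positions, exonic and canonical lengths, and GC content.

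Tests used edgeR 4.0.16 in R 4.3.3: filterByExpr, TMM scaling, robust glmQLFit and a two-sided glmQLFTest with treatment as the single term. P-values were adjusted by Benjamini-Hochberg over 15947 genes (threshold 0.05). Biological coefficient of variation: 17.0%. SE is the size of the log2 fold change over the root of its F value. The alternatives were DESeq2 1.42.0 (its size factors and its Wald test), library size alone, filters of 1 count or of 1 CPM in 3 libraries, a replicate block, an offset from smooth trends on exonic length and GC content (mgcv 1.9.3, which also removes such a trend between the groups), and each library left out. The fit was tested on simulated data. Limits for a count of 0 rest on 3 counts and cover counting error only. Members and lists were chosen with earlier results of these data known. All members, and every gene of the partner lists, were named. No 2 replicates agreed within sampling noise. Chi-square over its degrees of freedom was 4.72 to 8.07 between Supinoxin libraries and 32.1 to 129 between untreated libraries.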

Additional observations from a re-analysis of the deposited data

How the results depend on the processing

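Over up to 13 alternatives (12 for STAG3, which the filter of 1 CPM removed), 17 of 42 tested genes, the 9 members and the listed related genes, kept both direction and side of the threshold. NCAPD2 was the one member among them. The number of cohesin members called, 1 as reported, was 2 with no filter beyond 1 count, 2 by DESeq2, 2 with the replicate block (all higher) and 2 with the length and GC offset, both lower (SMC3 and STAG2). Leaving out each library in turn gave 0 to 3, with 3 without untreated replicate 1 (2 higher, STAG2 lower). The number of condensin members called, 2 as reported, was 4 with the offset (3 higher, NCAPD3 lower) and 1 to 4 with a library left out, 1 without any Supinoxin library and 4 without untreated replicate 1. Over all genes, 5345 to 8811 were called with a library left out, against 7750 as reported and 9056 with the offset. Without Supinoxin replicate 1, 2 or 3 the number was 5345, 5570 or 5562. Without untreated replicate 1, 2 or 3 it was 8811, 7292 or 8563. Directions turned with the offset for SMC3 (-0.22), NCAPD3 (-0.32), PDS5A (-0.11), PDS5B (-0.0064) and AURKB (0.26). They turned without untreated replicate 1 for SMC3 (-0.0073) and AURKB (0.25), with library size alone for SLF1 (0.068) and AURKB (0.10), and without untreated replicate 3 for SLF1 (0.080). With a library left out SMC3 ran from -0.0073 to 0.26, SLF1 from -0.16 to 0.080 and AURKB from -0.20 to 0.25. The cause was not tested. With library size alone the median over all genes was 0.14 (log2), and all changes given here are on the TMM scale. Replicate numbers did not pair the libraries: deviations of same-numbered libraries correlated at -0.13, -0.04 and -0.03, and 0 of 6 libraries correlated best with its own number. With the replicate block RAD21 and SMC2 passed (0.58 and 0.48, adjusted p = 0.0226 and 0.0434), and NCAPG (adjusted p = 0.0534) and SGO1 (adjusted p = 0.0615) did not. The SE of the tested subunits ran from 0.11 to 0.21 (log2).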

Other observations

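The SMC5/6 complex, the relative of cohesin and condensin that acts in DNA repair, was divided. Of 9 genes 7 were tested, of which 2 were higher and 3 lower, beside 23.4% higher and 25.2% lower over all genes tested. The median log2 fold change was -0.26, or -0.39 without untreated replicate 1, -0.14 without untreated replicate 3 and -0.54 with the length and GC offset. The ATPase gene SMC5 rose by 0.57 (edgeR adjusted p = 0.0149), a call lost without Supinoxin replicate 1, and the loading factor SLF2 rose by 0.72 (adjusted p = 0.00407), or 0.46 with the length and GC offset. SMC6, the partner of SMC5, stood at -0.26 (adjusted p = 0.192), and fell by 0.39 without untreated replicate 1 (adjusted p = 0.00251) and by 0.54 with the offset (adjusted p = 0.000437). The small subunit genes NSMCE1, NSMCE4A and NSMCE2 fell by 1.24, 0.72 and 0.77 on the log2 scale (adjusted p = 0.000765, 0.0015 and 0.00767), in all alternatives run. SLF1 did not pass, at -0.06 (-0.16 without untreated replicate 1), except with the offset (-0.23, adjusted p = 0.0346), and NSMCE3 and EID3 were listed at 0 in every library, as was SMC4.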
